A study of Arabidopsis thaliana with 72 samples.

Results

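AFR (ATTENUATED FAR-RED RESPONSE, AT2G24540) is followed here across a circadian time series of Arabidopsis thaliana seedlings. It was found as the gene whose supplied array annotation carries that locus, and 1 probe set, 263796_at, names it among the 22746 probe sets that are not controls. AFR was chosen by its measured rhythm in these arrays, that is, by its peak, amplitude and level in the conditions below, so its own waveform, amplitude, peak and level are given as descriptions with errors and without a test. RNA came from aerial tissue of seedlings kept for 11 days in 12 h light and 12 h dark and then in continuous white light. The 3 conditions were C24 wild type given nicotinamide, the toc1-1 mutant, and untreated C24 wild type. Each had 2 time courses of 12 arrays, every 4 h from 49 to 93 h, which makes 72 arrays. The series title asks which circadian transcripts are regulated together with cytosolic free calcium. Nicotinamide inhibits ADP-ribosyl cyclase, an enzyme that makes a calcium-releasing messenger, and its dose is not in the labels. toc1-1 is a clock mutant made with the chemical mutagen EMS; its parental accession is not in the labels, and more of its seeds were plated than of C24. The untreated time course 1 is labelled with an earlier growth stage than all others, and its growth note alone speaks of 12 h days. No far-red treatment is named in the labels, and the event from which hours are counted is not stated.

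AFR encodes an F-box protein with kelch repeats. F-box proteins are the part of SCF ubiquitin ligases that binds the protein to be marked for degradation, and kelch repeats fold into a propeller that can hold a partner protein. Seedlings with reduced AFR respond weakly to far-red light, which is sensed by phytochrome A, and AFR is therefore placed among the positive factors of that pathway. Transcripts of many light-signalling genes are also set by the circadian clock, which continues to run in constant light with a period near a day.

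In untreated seedlings AFR rose and fell once a day with a several-fold swing, and in both other conditions the swing was smaller and its timing was displaced. The values are the signal units of the deposited arrays, in which every array was scaled to a trimmed mean of 100. In the following sentences the first number of a pair is time course 1 and the second is time course 2.

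Under nicotinamide AFR read 66.3 and 49.4 at 49 h, 51.0 and 61.8 at 53 h, 80.0 and 69.7 at 57 h, 44.9 and 63.6 at 61 h, 33.6 and 40.1 at 65 h, and 36.2 and 36.3 at 69 h. In the second cycle it read 35.4 and 41.2 at 73 h, 73.9 and 71.2 at 77 h, 50.6 and 45.9 at 81 h, 53.1 and 67.4 at 85 h, 59.1 and 59.6 at 89 h, and 32.6 and 35.3 at 93 h. The low arrays were those of 65 to 73 h and of 93 h, and no array reached the untreated maxima.

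In toc1-1 AFR read 85.5 and 88.7 at 49 h, 33.7 and 39.5 at 53 h, 24.2 and 29.1 at 57 h, 18.5 and 25.5 at 61 h, 43.2 and 39.1 at 65 h, and 83.8 and 68.3 at 69 h. In the second cycle it read 71.9 and 62.7 at 73 h, 32.6 and 30.4 at 77 h, 25.2 and 32.2 at 81 h, 44.9 and 36.4 at 85 h, 61.9 and 41.6 at 89 h, and 73.9 and 74.1 at 93 h. High arrays therefore stood at 49 h, at 69 and 73 h, and at 93 h, with troughs at 61 h and at 77 to 81 h.

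In untreated seedlings AFR read 124 and 112 at 49 h, 62.3 and 92.3 at 53 h, 27.8 and 34.6 at 57 h, 22.5 and 22.9 at 61 h, 26.7 and 20.7 at 65 h, and 50.8 and 79.3 at 69 h. In the second cycle it read 101.1 and 133 at 73 h, 88.4 and 85.4 at 77 h, 22.7 and 44.5 at 81 h, 28.9 and 15.2 at 85 h, 27.5 and 30.5 at 89 h, and 76.3 and 60.6 at 93 h. The arrays of 49 and 73 h were the highest of both time courses, a day apart, and those of 57 to 65 h and 81 to 89 h were low.

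**Figure D1:**
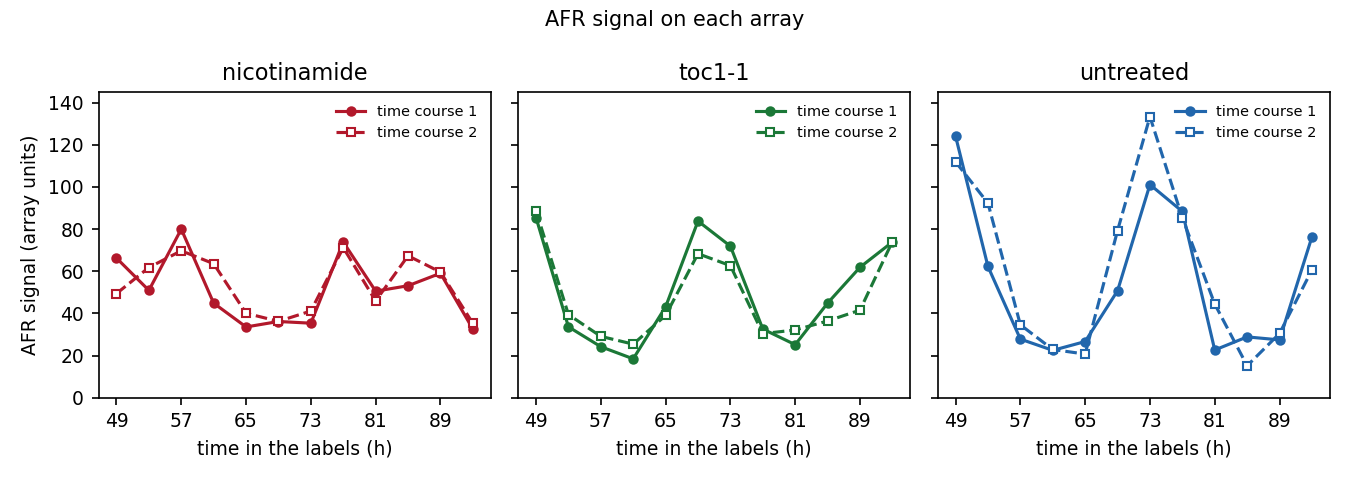
AFR signal (array units, linear axis from 0) against the time in the labels (h) in nicotinamide, toc1-1 and untreated seedlings, with filled circles for time course 1 and open squares for time course 2. Untreated arrays span 15.2 to 133 signal units, toc1-1 arrays 18.5 to 88.7, and nicotinamide arrays 32.6 to 80.0.

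The signal of AFR spanned 32.6 to 80.0 under nicotinamide (median 50.8), 18.5 to 88.7 in toc1-1 (median 40.5) and 15.2 to 133 in untreated seedlings (median 47.6, n = 24 arrays each). Under nicotinamide the ceiling was lower and the floor higher than in untreated seedlings, so the narrower span came from both ends. The highest array of a time course exceeded the lowest 2.45-fold and 2.02-fold under nicotinamide, 4.62-fold and 3.48-fold in toc1-1, and 5.51-fold and 8.76-fold in untreated seedlings. The conditions did not overlap in this fold.

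Level and rhythm were then taken from log2(signal + 16), a scale on which fold changes of weak signals are understated. Amplitude is that of a 24 h cosine, that is, the height of its peak above the mean on this log2 scale, and peak times are hours after 48 h and 72 h. Errors marked SE are from a fit to all arrays in limma, in which each probe set has 1 estimate of the spread for all conditions. No label says that the arrays of a time came from separate seedling batches, so errors and p-values cover the spread between these samples, which may be technical.

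The log2 level of AFR over the 12 times was 6.07 under nicotinamide, 5.93 in toc1-1 and 6.04 in untreated seedlings (SE 0.04 each). The difference from untreated seedlings was 0.02 ± 0.06 (SE) under nicotinamide and -0.11 ± 0.06 (SE) in toc1-1. By time course the level was 6.04 and 6.09 under nicotinamide, 5.95 and 5.92 in toc1-1, and 5.99 and 6.09 in untreated seedlings. Nicotinamide and untreated levels overlapped, while both toc1-1 levels lay below both untreated ones, with the nearest of them closer than the untreated time courses were to each other. The median difference over all 13647 tested probe sets was -0.12 for nicotinamide and 0.02 for toc1-1. After quantile normalization, which removed that shift for nicotinamide, the AFR level difference under nicotinamide was 0.24. In tissue RNA of this kind, fewer cells of a type and less RNA per cell cannot be told apart.

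The amplitude of AFR was 0.29 under nicotinamide, 0.61 in toc1-1 and 0.94 in untreated seedlings (SE 0.06 each). That is 30.5% of the untreated amplitude under nicotinamide and 64.4% in toc1-1. By time course it was 0.30 and 0.29 under nicotinamide, 0.68 and 0.54 in toc1-1, and 0.88 and 1.01 in untreated seedlings, so the time courses of different conditions did not overlap. A 24 h cosine took up 45.4% of the variation between the 24 arrays under nicotinamide, 80.7% in toc1-1 and 91.5% in untreated seedlings. Among all tested probe sets, 83.0% had a smaller amplitude than AFR under nicotinamide, 99.1% in toc1-1 and 99.1% in untreated seedlings. The median amplitude of all tested probe sets was 0.16 under nicotinamide, 0.09 in toc1-1 and 0.12 in untreated seedlings.

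The peak of AFR lay at 8.47 h under nicotinamide (SE 0.740), at 22.3 h in toc1-1 (SE 0.351) and at 1.501 h in untreated seedlings (SE 0.226). The difference from untreated seedlings was 6.97 h (later) under nicotinamide and -3.21 h (earlier) in toc1-1. By time course the peak was at 7.68 and 9.28 h under nicotinamide, at 21.9 and 22.7 h in toc1-1, and at 1.17 and 1.78 h in untreated seedlings. The gap between conditions was several times the gap between time courses.

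At each time the pair of arrays of a condition was set against the untreated pair. Nicotinamide and untreated arrays did not overlap for AFR at 12 of 12 times, a pattern held by 17.9% of tested probe sets. The nicotinamide pair was above the untreated pair at 57, 61, 65, 81, 85 and 89 h and below it at 49, 53, 69, 73, 77 and 93 h. Including AFR, 3 of 13647 tested probe sets (0.0220%) were separated at every time with 6 times above and 6 below. That pattern was copied from AFR after its values were seen. The small share is therefore no measure of how unusual AFR is. For nicotinamide, the share of tested probe sets above at a single time ran from 22.0% to 35.1%, and the share below from 32.3% to 46.3%. The toc1-1 and untreated pairs did not overlap at 7 of 12 times, and 39.2% of tested probe sets had at least as many. The toc1-1 pair was above at 65, 85 and 89 h and below at 49, 53, 73 and 77 h.

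**Figure D2:**
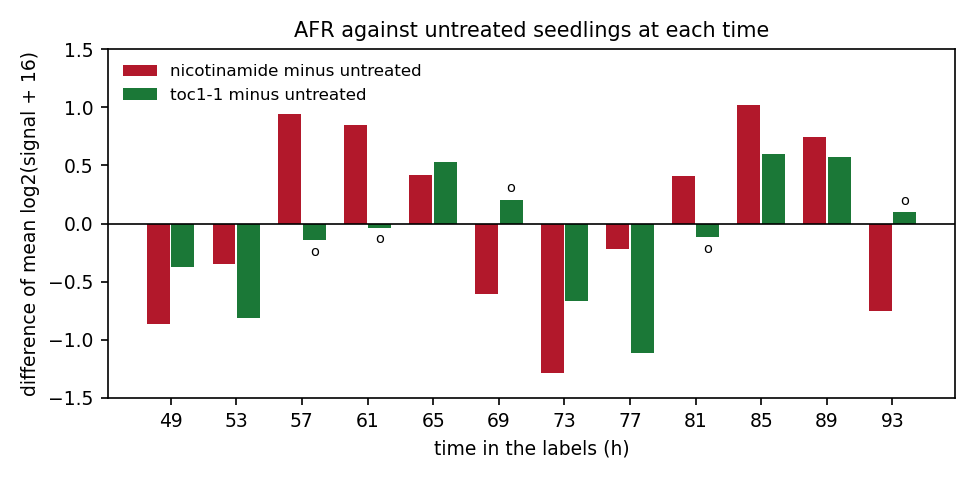
Difference of the mean log2(signal + 16) of AFR from untreated seedlings (vertical axis) at each time (h), for nicotinamide (red) and toc1-1 (green), n = 2 arrays per condition and time; o marks times at which the arrays overlapped. The bars alternate in sign over the day, between -1.29 at 73 h and 1.02 at 85 h for nicotinamide and between -1.11 at 77 h and 0.59 at 85 h for toc1-1.

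For nicotinamide the largest gaps fell near the untreated peak and trough. At 73 h the nicotinamide mean was 1.29 lower than the untreated mean on the log2 scale, and at 85 h it was 1.02 higher. In toc1-1 the largest gaps came 4 h after the untreated maxima of 49 and 73 h. The toc1-1 mean was 0.81 lower than the untreated mean at 53 h and 1.11 lower at 77 h, and it was 0.59 higher at 85 h. Both comparisons use the same untreated arrays, so their differences are not independent of each other.

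Each time course was split into a first cycle (49 to 69 h) and a second cycle (73 to 93 h). The AFR amplitude under nicotinamide was 0.38 ± 0.01 in the first cycle and 0.25 ± 0.02 in the second (SD, n = 2). In toc1-1 it was 0.74 ± 0.13 and then 0.52 ± 0.09, and in untreated seedlings 0.94 ± 0.09 and then 0.95 ± 0.10 (SD, n = 2). Within every time course of nicotinamide and toc1-1 the second cycle was the shallower, and in both untreated time courses the cycles differed by at most 0.02. The AFR peak came at 7.36 ± 1.51 h and then 10.2 ± 0.661 h under nicotinamide, at 23.1 ± 0.456 h and then 21.2 ± 0.674 h in toc1-1, and at 1.53 ± 0.266 h and then 1.43 ± 0.594 h in untreated seedlings (SD, n = 2). Against a 24 h day the peak moved later in both nicotinamide time courses, by 3.39 and 2.196 h, and earlier in both toc1-1 time courses. The second nicotinamide cycle had no single peak, since AFR was lower at 81 h than at 77, 85 and 89 h. The nicotinamide arrays of 77 h in time course 1 and 85 h in time course 2, which stood apart from the rest, lie in it. Cycle values and periods of AFR are not given without them.

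**Figure D3:**
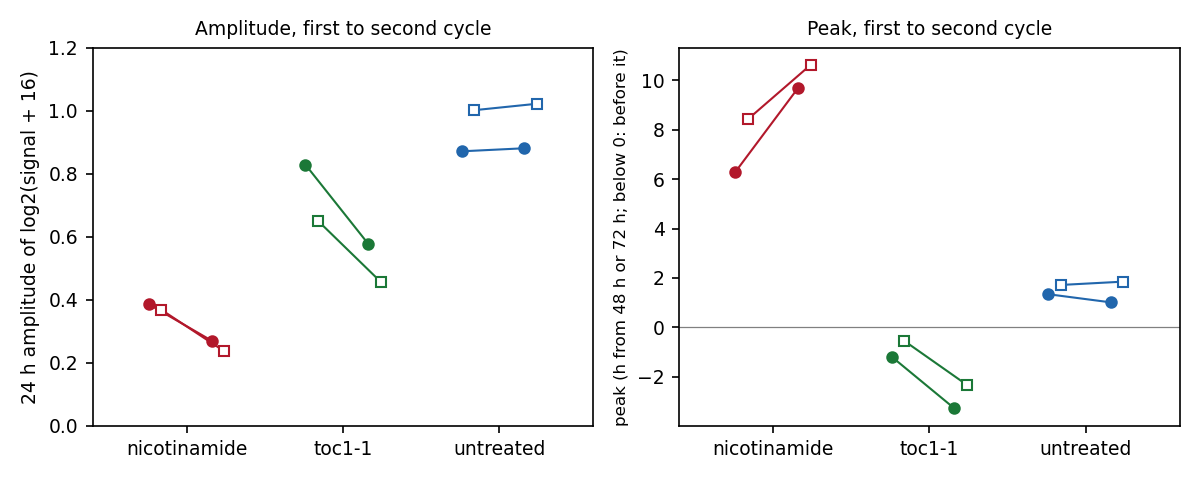
Amplitude (log2 scale, left panel) and peak (h after 48 h or 72 h, values below 0 lying before it, right panel) of AFR in nicotinamide, toc1-1 and untreated seedlings; each line joins the first cycle (left point) to the second (right point) of 1 time course, filled circles for time course 1 and open squares for time course 2. Lines slope down for nicotinamide and toc1-1 amplitudes and are near level for untreated ones, and the peaks move later under nicotinamide and earlier in toc1-1.

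The period of AFR was read from the best single cosine between 18 and 34 h. It was 28.5 and 26.6 h under nicotinamide, 21.9 and 22.9 h in toc1-1, and 24.1 and 24.2 h in untreated seedlings. The mean was 27.55 ± 1.34 h under nicotinamide, 22.4 ± 0.707 h in toc1-1 and 24.15 ± 0.0707 h in untreated seedlings (SD, n = 2). The order was nicotinamide, untreated and toc1-1, from long to short, with no overlap of time courses. The period of 3 clock-related transcripts from a single fit (GI, COR27 and AT4G33980) was 26.0 h under nicotinamide, 21.6 h in toc1-1 and 23.7 h in untreated seedlings. AFR stood in the same order, with each of its pooled periods (27.5, 22.3 and 24.2 h) somewhat longer. A record of under 48 h with a point every 4 h limits how finely these periods can be resolved.

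The timing of AFR was also read against GI, the evening-expressed clock protein GIGANTEA. AFR peaked after GI by 14.9 h under nicotinamide, 15.8 h in toc1-1 and 14.9 h in untreated seedlings. By time course this interval was 14.5 and 15.4 h under nicotinamide, 15.8 and 15.8 h in toc1-1, and 15.0 and 14.6 h in untreated seedlings. The nicotinamide and untreated intervals overlapped although both peaks had moved by many hours. All intervals here come from 24 h cosines and are counted on a 24 h day, although the periods differed. Counted to the next GI peak, AFR minus GI was -9.08 h under nicotinamide, -8.18 h in toc1-1 and -9.14 h in untreated seedlings. The toc1-1 interval was thus about 1 h longer counted after GI, and shorter counted before the next GI peak. Intervals at each condition's own period are not given. The interval after COR27, a cold-regulated gene whose product acts on the clock, was less even. It was 10.13 h under nicotinamide (10.6 and 9.85 h by time course), 12.5 h in toc1-1 (12.4 and 12.6 h) and 11.8 h in untreated seedlings (11.9 and 11.7 h).

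The amplitude loss and peak shift of AFR were set beside those of other transcripts, as a description. Apart from AFR, 635 probe sets were rhythmic in all 3 conditions at an adjusted p under 0.05. Their median peak shift was 7.98 h under nicotinamide (quartiles 6.41 and 9.99) and -3.79 h in toc1-1 (quartiles -4.42 and -3.17), and the AFR shifts of 6.97 h and -3.21 h fell within those quartiles. Over all 13647 tested probe sets, AFR aside, 116 had an untreated amplitude at least that of AFR. These 116 were not selected by the rhythm calls. Their median amplitude was 50.2% of the untreated one under nicotinamide, and 26 of the 116 had a lower share than the 30.5% of AFR. In toc1-1 their median share was 61.7%, and 73 of the 116 had a lower share than the 64.4% of AFR.

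Other transcripts were ranked by likeness to AFR over the 36 means of condition and time, after the mean of each condition was taken off. The points share their arrays and the 24 h cycle, so these correlations describe a shared waveform and have no p. Of 7281 other tested probe sets with 1 annotated gene, 49 had r above 0.8 and 6 above 0.9, while 36 had r below -0.8 and 3 below -0.9. The median r was -0.03. The 8 most like AFR were AT5G55380 (r = 0.926), AT2G19650 (r = 0.914), AT2G34460 (r = 0.910), AT2G15020 (r = 0.909), AT5G15950 (r = 0.907), AT3G17800 (r = 0.904), AT5G42070 (r = 0.891) and AT5G54130 (r = 0.888). The other probe set of AT5G54130 gave r = 0.818. The annotation gives these loci no symbol, and no role is stated for them here.

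Within untreated seedlings these 8 correlated with AFR at r = 0.927 to 0.974 over 12 means, and within toc1-1 at r = 0.882 to 0.957. Within nicotinamide the range was wider, 0.625 to 0.925, and AT5G55380 was the closest there. Their peaks lay at 5.36 to 11.7 h under nicotinamide, 20.7 to 22.7 h in toc1-1 and 0.839 to 2.52 h in untreated seedlings, around the AFR peaks in each case. Their levels did not follow AFR: the log2 difference of nicotinamide from untreated seedlings ran from -1.25 for AT5G42070 to 1.80 for AT3G17800, against 0.02 for AFR. With levels left in, the 5 most alike were AOR (r = 0.884), AT1G70985 (r = 0.881), AT3G27050 (r = 0.860), AT2G19650 (r = 0.846) and AT4G26860 (r = 0.846).

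The 4 transcripts most opposed to AFR were COR27 (r = -0.921), AT1G07050 (r = -0.915), AT4G16146 (r = -0.907) and AT3G62550 (r = -0.891). They peaked at 20.8 to 22.3 h under nicotinamide, 8.87 to 11.1 h in toc1-1 and 13.0 to 14.9 h in untreated seedlings. Their amplitudes were larger than that of AFR in every condition, at 0.66 to 1.29 under nicotinamide, 0.95 to 1.08 in toc1-1 and 1.48 to 1.81 in untreated seedlings.

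**Figure D4:**
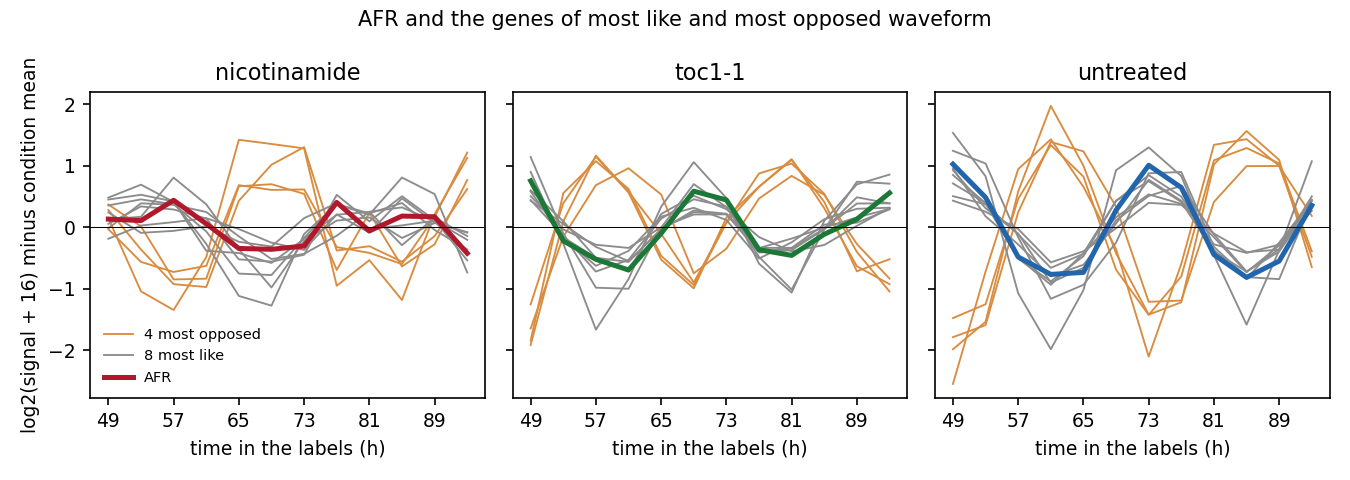
Mean log2(signal + 16) minus the condition's mean against time (h) for AFR (thick line), the 8 genes of most like waveform (grey) and the 4 most opposed (orange), in nicotinamide, toc1-1 and untreated seedlings, n = 2 arrays per point. The grey lines follow AFR closely in untreated seedlings (r 0.927 to 0.974) and more loosely under nicotinamide (r 0.625 to 0.925).

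Genes of 4 lists around AFR were tested in the fit over all 13647 probe sets, with Benjamini-Hochberg adjusted p-values from limma. The lists hold 142 genes, of which the annotation names 18 and 15 were tested, so they rest on few members. They cover phytochrome and far-red signalling, SCF ligases, the clock and light-regulated photosynthesis and pigment genes. In the order nicotinamide, toc1-1 and untreated, 7, 8 and 10 of the 15 were rhythmic, against 32.0%, 8.54% and 22.9% of all tested probe sets.

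The far-red list had 3 tested members of 58 listed: HYH, a bZIP factor related to HY5 that promotes development in light, SCL21, a GRAS protein of phytochrome A signalling, and AT1G18810. HYH and AT1G18810 were called rhythmic in toc1-1 and without treatment, and none of the 3 under nicotinamide. The toc1-1 call of AT1G18810 was lost without time course 1 (adjusted p = 0.0646) and without time course 2 (adjusted p = 0.375). HYH peaked close to AFR in untreated seedlings. Its mean signal was 143 at 49 h and 154 at 73 h in untreated seedlings, with 35.0 at 61 h and 23.9 at 85 h. Its amplitude was 0.10 under nicotinamide, 0.56 in toc1-1 and 0.95 in untreated seedlings (SE 0.11), and its waveform correlated with that of AFR at r = 0.682. The small 24 h amplitude of HYH under nicotinamide was not a narrow signal. Its arrays spanned 21.6 to 240 there, against 23.3 to 164 in untreated seedlings. Its untreated peak was at 0.454 h and its toc1-1 peak at 19.7 h, so it ran ahead of AFR in both.

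The rhythm of HYH differed from untreated seedlings under nicotinamide (adjusted p = 9.21e-06 in limma) and in toc1-1 (adjusted p = 0.00027 in limma). Such a difference was called for 25.9% of all tested probe sets under nicotinamide and 7.20% in toc1-1. In level HYH was 0.44 higher under nicotinamide on the log2 scale (SE 0.11, adjusted p = 0.000573 in limma) and 0.44 higher in toc1-1 (SE 0.11, adjusted p = 0.00189 in limma). The background for higher levels was 30.9% under nicotinamide and 22.1% in toc1-1. Time course 1 carried the nicotinamide value: HYH read 240 and 85.7 at 49 h in time courses 1 and 2, and without time course 1 the difference was 0.11 (adjusted p = 0.544 in limma). With either time course left out, the level call in toc1-1 did not pass (adjusted p = 0.0687 and 0.0842 in limma). Without time course 2, the rhythm difference did not pass under nicotinamide (adjusted p = 0.0525) or in toc1-1 (adjusted p = 0.421). With each condition's own period in place of 24 h, the toc1-1 rhythm difference did not pass (adjusted p = 0.175). Without time course 1 or 2, HYH was not called rhythmic in toc1-1 (adjusted p = 0.211 and 0.360).

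AT1G18810 had an amplitude of 0.12 under nicotinamide, 0.48 in toc1-1 and 0.65 in untreated seedlings (SE 0.11). Its rhythm differed under nicotinamide (adjusted p = 0.00121 in limma), and not without time course 2 (adjusted p = 0.131). Its level fell under nicotinamide by 0.35 (adjusted p = 0.00453 in limma), where 48.4% of all tested probe sets were lower. That fall was lost after quantile normalization (-0.16, adjusted p = 0.128), and without time course 2 the difference was 0.06 (adjusted p = 0.739). SCL21 fell by 0.18 under nicotinamide (adjusted p = 0.00643 in limma), and after quantile normalization the difference was 0.08 (adjusted p = 0.212). It did not pass without time course 1 (adjusted p = 0.0589) or without time course 2 (adjusted p = 0.0949). The median level difference of the 3 was -0.18 under nicotinamide, against -0.12 for all tested probe sets.

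The SCF list had 2 tested members of 23 listed. SK18, a SKP1-type protein of the kind that joins F-box proteins to the ligase, ranged from 46.3 to 115 signal units under nicotinamide (median 66.3) and from 64.9 to 105 in untreated seedlings (median 80.0). CSN5B, the catalytic subunit of the COP9 signalosome that removes a ubiquitin-like tag from these ligases, ranged from 9.20 to 23.3 under nicotinamide (median 13.9) and from 11.0 to 35.4 in untreated seedlings (median 26.9). Neither was called rhythmic in any condition, though SK18 was under nicotinamide after quantile normalization (adjusted p = 0.0454) or with a linear trend (adjusted p = 0.0195). Both fell under nicotinamide, where 48.4% of all tested probe sets were lower, CSN5B by 0.40 (SE 0.05, adjusted p = 7.56e-09 in limma) and SK18 by 0.19 (SE 0.06, adjusted p = 0.00327 in limma). After quantile normalization CSN5B was still lower (-0.13, adjusted p = 0.0251) and SK18 no longer passed (-0.03, adjusted p = 0.7). SK18 also did not pass without time course 1 (adjusted p = 0.267). Neither passed in toc1-1, where 19.6% of tested probe sets were lower.

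The clock list had 6 tested members of 30 listed, with 4 rhythmic under nicotinamide, 4 in toc1-1 and 5 in untreated seedlings. In amplitude GI (0.93, 0.75 and 1.36 in nicotinamide, toc1-1 and untreated seedlings) and AT4G33980 (0.88, 0.66 and 1.097) were larger under nicotinamide than in toc1-1. AFR, at 0.29, 0.61 and 0.94, had the opposite order of these 2 conditions. Level was higher under nicotinamide for 5 of the 6, with GI 0.56 higher on the log2 scale, and lower for 0, against 30.9% and 48.4% of all tested probe sets. Of those 5 calls, that of AT4G33980 was lost without time course 1 (0.21, adjusted p = 0.154) and that of COR27 without time course 2 (0.35, adjusted p = 0.105). In toc1-1 COR27 was higher and TIC, a clock regulator, lower, and neither call held without either time course. The light-regulated list had 4 tested members of 31 listed, LHCB4.1, LHCB4.2 and LHCB4.3 of the photosystem II antenna and PORB of chlorophyll synthesis. All 4 were lower under nicotinamide, and PORB fell by 2.94 on the log2 scale, while 1 of 4, LHCB4.3, was lower in toc1-1. The shares over all tested probe sets were 48.4% lower under nicotinamide and 19.6% lower in toc1-1. The LHCB4.3 call in toc1-1 was lost with either time course left out (adjusted p = 0.222 and 0.285). AFR had its smallest amplitude under nicotinamide and its largest in untreated seedlings. Of the members rhythmic in toc1-1, this order was shared by HYH, AT1G18810, LHCB4.2 (0.50, 0.70 and 0.99 in nicotinamide, toc1-1 and untreated seedlings) and COR27 (0.88, 1.08 and 1.81). It was not shared by GI, AT4G33980, AT1G69570 and LHCB4.3. The toc1-1 rhythm calls of HYH and AT1G18810 were lost with either time course left out, and that of LHCB4.2 without time course 2. These orders of amplitude were not tested, and their share over all tested probe sets was not counted. Taking members with a rhythm in toc1-1 also favours larger amplitudes there.

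**Figure D5:**
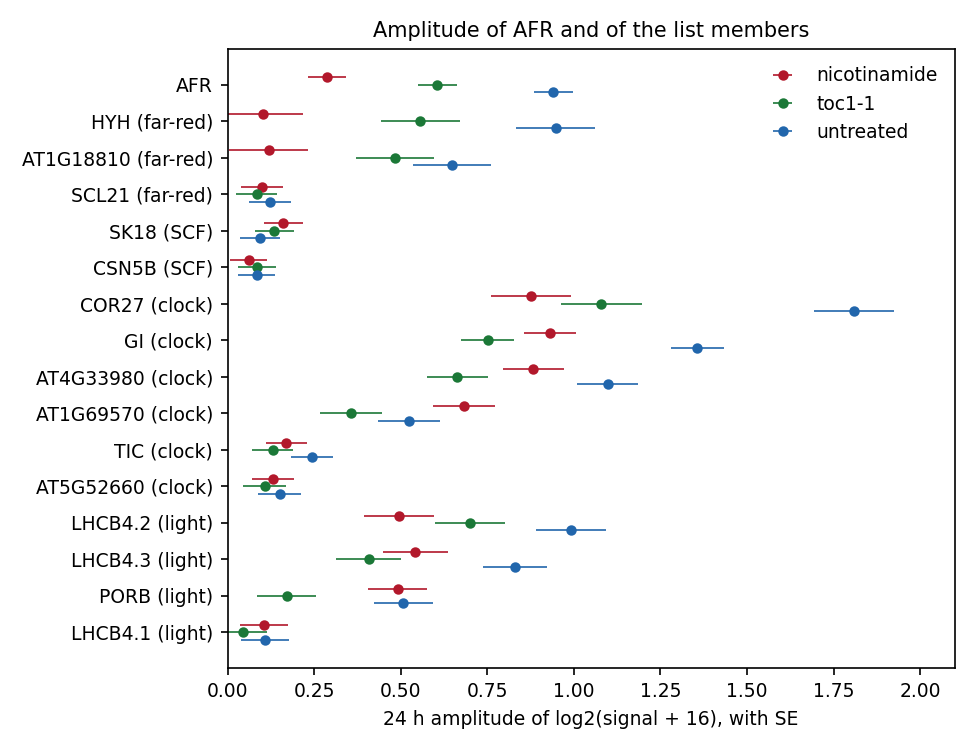
Amplitude of the 24 h cosine on the log2(signal + 16) scale, with its SE, for AFR and the 15 tested list members in nicotinamide (red), toc1-1 (green) and untreated seedlings (blue). AFR and HYH reach 0.94 and 0.95 in untreated seedlings, and under nicotinamide they stand at 0.29 and 0.10. The HYH signal was not flat under nicotinamide, where its arrays spanned 21.6 to 240.

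Over the whole series, the median signal of an array was 26.5 ± 3.38 under nicotinamide, 35.5 ± 0.990 in toc1-1 and 35.2 ± 1.49 in untreated seedlings (SD, n = 24 each). The lowest correlation of log2 signals between the arrays of a time was 0.919, 0.962 and 0.970 in the same order. The nicotinamide arrays of 77 h in time course 1 and 85 h in time course 2 stood apart from the rest. Without them the AFR amplitude under nicotinamide was 0.28, an alternative chosen after the data were seen. As a check of the tissue, 4 leaf markers of 12 listed were named, and their summed signal ranged from 7610 to 18675 under nicotinamide, 8105 to 14089 in toc1-1 and 9016 to 16798 in untreated seedlings. Of these 4 leaf markers, 3 were lower and 0 higher under nicotinamide, against 48.4% and 30.9% of all tested probe sets. In toc1-1, 0 were lower and 1 was higher, against 19.6% and 22.1%. LHCB4.1 and LHCB4.2 are also in the light-regulated list. Root markers were not at 0 in this aerial tissue: 7 of 14 were named, with sums from 1132 to 2998 under nicotinamide, 2147 to 5117 in toc1-1 and 1338 to 6054 in untreated seedlings. Of 5 tested root markers, 5 were lower under nicotinamide, 4 were lower in toc1-1, and 4 cycled in untreated seedlings, against 48.4%, 19.6% and 22.9% of all tested probe sets. The filter used the mean over all conditions, so a marker could be tested through its untreated signal. AT4G26010 had a median of 0.77 under nicotinamide, 10.2 in toc1-1 and 185 in untreated seedlings. The counts of lower root markers are therefore partly set by the filter, and no conclusion is drawn from them. The part of these markers in the AFR values was not tested.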

How the data were processed

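Each of 72 ATH1 arrays measured RNA from the aerial tissue of seedlings. The deposited signals are linear intensity values, for which the submitters' processing notes name MAS5 and GCOS without a version. The number of arrays, not a read depth, limits the precision. Of 22810 probe sets, 64 are controls; of the others, the upper 60% by mean log2(signal + 16) were tested, 13647 in number. The model, fitted with limma 3.58.1 (R 4.3.3, data.table version 1.17.8), had 36 means, 1 per condition and time, and variances moderated with a trend on intensity (residual degrees of freedom 36, prior 6.74). Contrasts of those means gave the level and the 24 h cosine and sine terms, and calls had a Benjamini-Hochberg adjusted p under 0.05. The procedure was tested on simulated data.

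Genes were named from the supplied array annotation, in which 13513 probe sets had 1 gene, 503 several and 8794 none listed. Identifiers of 13436 matched the TAIR10.1 reference annotation, used for names only. AFR and the lists were chosen with earlier results of these data known. Named genes are AFR, the 8 most like and 4 most opposed waveforms, the 5 most like with levels, and up to 4 list members per comparison with the smallest adjusted p. That annotation holds no descriptions, so kelch and F-box families could be taken only by name, which gave CEG, not tested for low signal. The gene mutated in toc1-1 is not reported here.

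Replicate numbers recur in all conditions. Differences between time courses 1 and 2 correlated between pairs of conditions at 0.183, 0.522 and 0.225 over probe sets, with 2 numbers only, so no replicate term was used in the results given. Alternatives were quantile normalization, pseudocounts of 1 and 64, a replicate term, each condition's own period, a linear trend, each time course left out, arrays with a title ending in 2 (3 in number) or standing apart left out, other filters, an adjusted p under 0.01, and highest and lowest times in place of a cosine.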

Additional observations from a re-analysis of the deposited data

Results flagged for a closer look

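The change of AFR from the first to the second cycle had opposite signs in the pairs of conditions set side by side below, in both time courses of each. None of these differences between conditions was tested, and with 2 time courses each the direction is all that is shown. The amplitude changed by -0.12 and -0.13 under nicotinamide in time courses 1 and 2, against 0.00968 and 0.0204 in untreated seedlings. In toc1-1 it changed by -0.25 and -0.19, against the same untreated values of 0.00968 and 0.0204. The SE of 0.06 of an AFR amplitude is for the 24 arrays of a condition. A change between cycles of a single time course has a larger error, which was not computed. None of these amplitude changes is therefore set against an error. The peak moved by 3.39 and 2.196 h under nicotinamide and by -2.09 and -1.78 h in toc1-1. The log2 level changed by -0.0173 and -0.00476 under nicotinamide, against 0.12 and 0.0153 in untreated seedlings. In toc1-1 the level changed by 0.14 and -0.0128, so its time courses differed in sign. The SE of 0.04 of a condition's level is likewise for 24 arrays, and no error was computed for these level changes.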

How the results depend on the processing

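The AFR amplitude under nicotinamide was 0.33 after quantile normalization, 0.37 and 0.17 with pseudocounts of 1 and 64, 0.32 at the condition's own period, 0.28 with a linear trend, 0.28 without the 3 arrays of title ending 2, 0.28 without the arrays standing apart and 0.41 from the highest and lowest times. With pseudocounts of 1 and 64 it was 0.81 and 0.34 in toc1-1 and 1.24 and 0.55 in untreated seedlings. Over 12 settings the AFR amplitude stayed below the untreated one, at 28.7% to 44.1% of it under nicotinamide and 53.3% to 77.5% in toc1-1. The 12 include the reported setting and the replicate block, which give the same amplitudes by design. With either time course left out, the nicotinamide amplitude was 0.29 to 0.30. The highest and lowest times put the AFR peak at 7 h under nicotinamide, 23 h in toc1-1 and 1 h in untreated seedlings. The AFR level difference under nicotinamide was 0.24 after quantile normalization. The replicate block cannot change the AFR amplitudes, since each condition and time has 1 array of each time course. It changed none of 105 calls of list members.

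Of the 15 list members, 8 were rhythmic in toc1-1, and 3 were with either time course left out. The 4 level calls in toc1-1 were 0 to 1 with a time course left out and 2 at an adjusted p under 0.01, and the 8 rhythm differences in toc1-1 were 3 to 4. Leaving out a time course leaves 1 array per time, and the spread then came from the residuals of the cosine. Level differences under nicotinamide turned sign for SCL21 after quantile normalization (0.0847). For AT1G18810 they ran from -0.766 without time course 1 to 0.0592 without time course 2. AFR itself lies below a filter to the upper 40% of probe sets. Within nicotinamide alone, 3 of the 8 genes most like AFR were among the highest 100. The cause of these changes was not tested.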
